A study of Mus musculus with 4 samples.

Results

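The 9 annexin genes *Anxa1*, *Anxa2*, *Anxa3*, *Anxa4*, *Anxa5*, *Anxa6*, *Anxa7*, *Anxa8* and *Anxa11* were taken from the 56748 gene IDs of the count files by matching each Ensembl ID to its GENCODE symbol. All 9 had enough reads to be among the 8670 genes tested. The reads are from nanopore direct RNA sequencing of C2C12, an established mouse myoblast line kept in growth medium, in 4 libraries. Scrambled cells carried a control shRNA (2 libraries), and knockdown cells carried a cocktail of 3 shRNAs against *Hnrnpl*, the gene of the splicing regulator hnRNP L (2 libraries). The shRNA plasmids of both groups also carried eGFP and puromycin selection, and the genotype is given as WT. Libraries of a group came from different passages of 1 selected stable line, so p-values measure the spread between passages and a line cannot be told apart from its treatment. Each of the 2 batches held 1 library of each group.

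Annexins bind acidic membrane phospholipids when calcium rises, through a conserved core of repeats that each can hold a calcium loop. Their N-terminal regions differ and bind partners such as S100 proteins. In muscle, several annexins gather at torn plasma membrane and take part in its resealing.

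The family resemblance can be seen in the coding sequence of the calcium loop, shown here for the pair of most abundant members, for the member that passed the test and for the member with a duplicated core. Capitals mark the first in-frame match to GGNNNNGGNACN, the codons of glycine, any residue, glycine and threonine, searched on the coding strand of the canonical GENCODE transcript. Each run is printed in the direction of the mRNA.
Anxa1: gccatgaagGGACTTGGAACAgatgaagac
Anxa2: tccatgaagGGCCTGGGGACTgacgaggac
Anxa3: gcgatcagaGGACTTGGGACTgacgagaaa
Anxa6: gccatctcgGGCGTTGGCACAgatgagaag
On GRCm39 the *Anxa1* run lies on the reverse strand of chromosome 19 between 20359484 and 20360234, across exons 5 and 6 of 13. The *Anxa2* run lies on the forward strand of chromosome 9 between 69387065 and 69390276, across exons 5 and 6 of 13. The *Anxa3* run lies on the forward strand of chromosome 5 between 96958981 and 96960714, across exons 3 and 4 of 13, and the *Anxa6* run on the reverse strand of chromosome 11 between 54900006 and 54901826, across exons 5 and 6 of 25. In 9 of the 9 members the run around the first match crossed an exon junction. The members held between 2 matches (*Anxa1*, *Anxa2*) and 5 (*Anxa6*). Of 21770 mouse coding sequences, 13.4% held at least 1 match and 0.436% held 3 or more.

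The annotated transcripts of the members were distinct in sequence. Over the 36 pairs of members, the longest identical stretch was 11 to 18 bases. Each canonical transcript, whole or as its last 850 bases, mapped to its own gene with a mapping quality of 60 and no second position. The sequenced reads themselves were not mapped here. Over all genes, 16% to 16.5% of a library's reads were ambiguous and 22.7% to 23.8% were of low alignment quality. Exons of *Anxa4* shared 12.2% of their bases with an antisense lncRNA (*Gm44036*), and those of *Anxa5* 6.46% with the antisense gene *1810062G17Rik*. Those of *Anxa11* shared 5.48% with the antisense gene *Plac9*. On the same strand, exons of *Anxa3* shared 1.8% with *Gm42603* and those of *Anxa5* 0.755% with *Mir7009*. Each of these overlapping genes had 5 reads or fewer per library. The strand setting of the counting is not given in the sources used here, so reads in the antisense overlaps may have been set aside. Reads in the same-strand overlaps may have been set aside under any setting. The CA repeat CACACACACA, a sequence of the kind hnRNP L binds, was on the sense strand of 0 of the 9 canonical annexin transcripts, against 9.24% of canonical protein coding transcripts. Among all annotated annexin transcripts it was in 1 of 20 from *Anxa2* and in none of the other genes. Only transcript sequences were searched for this exact repeat. Introns that are spliced out, where the paper states hnRNP L also binds, were left out. Within the canonical annexin transcripts the longest stretch identical to an shRNA target was 8 bases. The 7 bases of a target that pair with the seed of an antisense guide were TGGAAGC for target 1, found in *Anxa4* and *Anxa7*, against 33.6% of canonical protein coding transcripts. Those of target 2, ACGGATG, were in *Anxa7* and *Anxa11* (8.2% of transcripts), and those of target 3, TGGATCA, were in *Anxa2* (21.5%). Their part in the annexin values was not tested.

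The 4 libraries held between 1229424 and 1676911 reads counted on genes, so a count of 0 allows between 1.79 and 2.44 CPM (reads per 1e+06 counted reads, at 3 counts, counting error only). *Hnrnpl* itself had 358 and 656 reads in the scrambled libraries, and 242 and 258 in the knockdown libraries, -0.78 ± 0.18 on the log2 scale (SE), with an edgeR adjusted p of 0.0112. Of the 6 myoblast markers, all had reads, but *Myod1* had 1 read in 1 library. Their summed level was 657 and 800 CPM in scrambled and 460 and 374 CPM in knockdown. Markers of differentiated muscle summed to 5.09 to 11.5 CPM, and fibroblast, macrophage, endothelial and adipocyte markers each to under 7.16 CPM or to 0, with *Ptprc*, *Adgre1*, *Pecam1*, *Kdr* and *Plin1* at 0 reads in the 4 libraries. Of these markers *Cdh15*, *Chrna1* and *Des* fell, with log2 fold changes of -2.55, -1.53 and -0.56 (adjusted p from edgeR 2.03e-06, 3.4e-05 and 0.0308), while *Myf5* was at -0.16 (adjusted p = 0.615) and *Vcam1* at 0.29 (adjusted p = 0.707). The part of the lower summed markers in the annexin values was not tested.

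Annexin mRNAs were abundant in these myoblasts. Summed over the 9 genes, 10781 and 13189 reads fell on annexins in the scrambled libraries, against 9793 and 8360 in the knockdown libraries. That is 0.777% and 0.787% of the counted reads in scrambled and 0.712% and 0.680% in knockdown, lower in both knockdown libraries. Levels of different genes are compared as CPM per kb of the canonical transcript. *Anxa1* stood highest on this scale, at rank 61 of 8662 tested genes with a length, with 2258 and 2172 CPM per kb in scrambled and 1789 and 1670 in knockdown. *Anxa2* followed at rank 80, with 1541 and 1670 CPM per kb in scrambled and 1445 and 1454 in knockdown. *Anxa3* and *Anxa5* came next at ranks 256 and 297, *Anxa6* at 984, *Anxa7* at 1518, *Anxa8* at 1660, *Anxa4* at 2301 and *Anxa11* at 3256. In scrambled, *Anxa3* (285 and 297 CPM per kb) and *Anxa5* (308 and 258) overlapped, and the other neighbours in the order did not. In knockdown, *Anxa3* (413 and 451) lay above *Anxa5* (393 and 327), and the overlapping neighbours were *Anxa7* and *Anxa8*. In plain CPM, with no division by length, *Anxa5* (447 to 533) stood above *Anxa3* (472 to 493) in scrambled with overlap, and the overlapping neighbours in knockdown were *Anxa8* (67.7 to 78.9) and *Anxa4* (65.1 to 72.7).

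**Figure D1:**
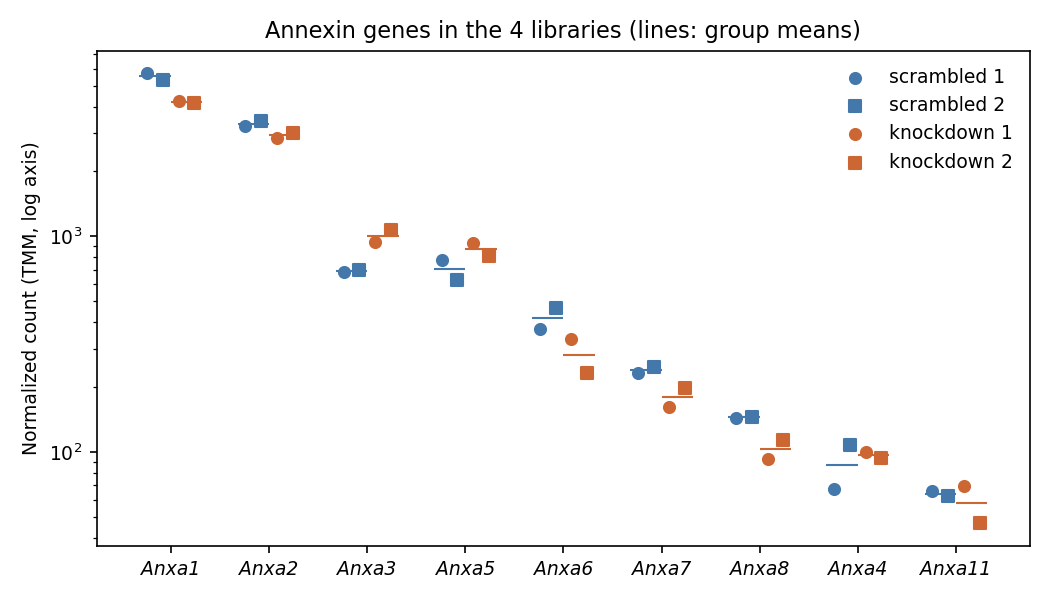
Normalized counts (TMM, log axis) of the 9 annexin genes in each library, with horizontal lines for group means (n = 2). *Anxa1* and *Anxa2* lie above the other genes in every library, and for *Anxa3* both knockdown points (938 and 1075) lie above both scrambled points (686 and 696).

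The main question was which annexin genes differed between *Hnrnpl* knockdown and scrambled myoblasts. Of the 9 genes, 1 rose by the test (*Anxa3*) and none fell. The study's thresholds defined a call: the adjusted p had to be under 0.05, the log2 fold change beyond 0.5 in either direction and the mean normalized count above 10. Over all 8670 genes tested 2.33% were called higher and 3.22% lower, 5.55% in either direction. With 2 libraries a side the smallest p of an exact permutation test is 0.333, so p-values are from the quasi-likelihood test of edgeR fitted across all genes, with Benjamini-Hochberg adjustment. At an unadjusted p under 0.05 there were 6 members, against 21.8% of all genes tested. The median log2 fold change of the 9 genes was -0.18, against 0.00 (-0.00059) over all genes.

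*Anxa3*, an annexin with a short N-terminal region, had 655 and 827 reads in the scrambled libraries, and 942 and 920 in the knockdown libraries. Normalized counts (TMM-scaled, at the mean depth) were 691 ± 7.03 in scrambled against 1007 ± 96.7 in knockdown (SD, n = 2 each), 45.8% higher, and the groups did not overlap. The log2 fold change was 0.54 ± 0.14 (SE), and the edgeR adjusted p was 0.0235. Within batch 1 the log2 ratio was 0.45 and within batch 2 it was 0.63. The call was lost with any single library left out except knockdown 1: the adjusted p of edgeR was 0.114 without scrambled 1, 0.118 without scrambled 2 and 0.101 without knockdown 2, with log2 fold changes of 0.53, 0.55 and 0.44, and each such fit rests on a lone library in 1 group. *Anxa3* lies on chromosome 5 from 96940544 to 96993828, and the median log2 fold change of that chromosome was 0.23. With chromosome medians removed the value was 0.31 (adjusted p = 0.285 from edgeR). The call was also lost in DESeq2 with parametric dispersions (adjusted p of 0.0799 by Wald and 0.0921 by likelihood ratio), at 0.54. DESeq2 with a local fit called *Anxa3*, also at 0.54. There the adjusted p was 0.0103 by Wald, the configuration the study used, and 0.011 by likelihood ratio.

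*Anxa6*, the member with a duplicated core, had the most negative value. It had 355 and 553 reads in scrambled and 335 and 199 in knockdown. Normalized counts were 418 ± 66.1 in scrambled against 283 ± 71.5 in knockdown (SD, n = 2 each), with no overlap of the groups. The log2 fold change was -0.56 ± 0.17 (SE), and the edgeR adjusted p of 0.0566 missed the threshold. Most of the distance was in batch 2, where normalized counts went from 465 in scrambled to 233 in knockdown, against 372 and 334 in batch 1. It was -0.85 without knockdown 1 (adjusted p = 0.0342 from edgeR) and -0.33 without knockdown 2 (adjusted p = 0.333 from edgeR).

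*Anxa1*, whose protein is induced by glucocorticoids and dampens inflammation, had 5452 and 6337 reads in scrambled and 4279 and 3573 in knockdown. Both knockdown libraries lay below both scrambled libraries, at normalized counts of 4219 ± 61.7 (SD, n = 2) against 5520 ± 267 (SD, n = 2). The log2 fold change was -0.39 (95% interval -0.68 to -0.09, adjusted p = 0.110 from edgeR), with -0.42 in batch 1 and -0.35 in batch 2. In DESeq2 with a Wald test and local dispersion fit, the configuration the study used, the adjusted p was 0.0170, where 2.79% of 8507 genes were under 0.05, and the size stayed under the fold threshold at -0.39. The median log2 fold change of its chromosome 19 was -0.23, and with chromosome medians removed *Anxa1* was at -0.16 (adjusted p = 0.682 from edgeR). Across the 17 alternatives the adjusted p of *Anxa1* lay between 0.00731 and 0.682.

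*Anxa2*, whose protein forms a complex with S100a10 at the membrane, had 3093 and 4053 reads in scrambled, and 2875 and 2586 in the knockdown libraries. The groups did not overlap after scaling, yet the difference was small: 3324 ± 121 against 2943 ± 112 normalized counts (SD, n = 2), a log2 fold change of -0.18 with a 95% interval of -0.46 to 0.11 (adjusted p = 0.495 from edgeR). The median of its chromosome 9 was -0.37, and with chromosome medians removed *Anxa2* turned to 0.19. *Anxa5*, the phosphatidylserine binder used to stain dying cells, had 739 and 749 reads in scrambled and 936 and 695 in knockdown. Its normalized counts were higher in both knockdown libraries (933 and 812) than in the scrambled ones (774 and 630), with a log2 fold change of 0.32 (95% interval 0.01 to 0.62, adjusted p = 0.207 from edgeR). Single libraries left out moved it between 0.17 (without scrambled 2) and 0.47 (without scrambled 1).

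*Anxa7*, *Anxa8* and *Anxa11* lie on chromosome 14, whose median log2 fold change was -0.36. *Anxa7*, first known as synexin for its part in membrane fusion, had 222 and 295 reads in scrambled and 163 and 170 in knockdown, and a log2 fold change of -0.42 (95% interval -0.75 to -0.09, adjusted p = 0.123 from edgeR). It was -0.28 without knockdown 1 and -0.57 without knockdown 2. *Anxa8* had 138 and 173 reads in scrambled and 93 and 97 in knockdown, and a log2 fold change of -0.50 (95% interval -0.86 to -0.14, adjusted p = 0.0905 from edgeR). For both, each knockdown library lay below each scrambled library, and with chromosome medians removed the values were -0.05 and -0.14. *Anxa11*, whose protein links RNA granules to lysosomes, had 63 and 74 reads in scrambled and 70 and 40 in knockdown. Its groups overlapped, and its log2 fold change of -0.12 had an interval of -0.60 to 0.35. It turned to 0.24 with chromosome medians removed and to 0.12 without knockdown 2. *Anxa4*, on chromosome 6 (median 0.28), had 64 and 128 reads in scrambled and 100 and 80 in knockdown. Its groups overlapped too, and its log2 fold change was 0.13 (95% interval -0.31 to 0.56). It turned to -0.15 with chromosome medians removed and to -0.16 without scrambled 1.

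**Figure D2:**
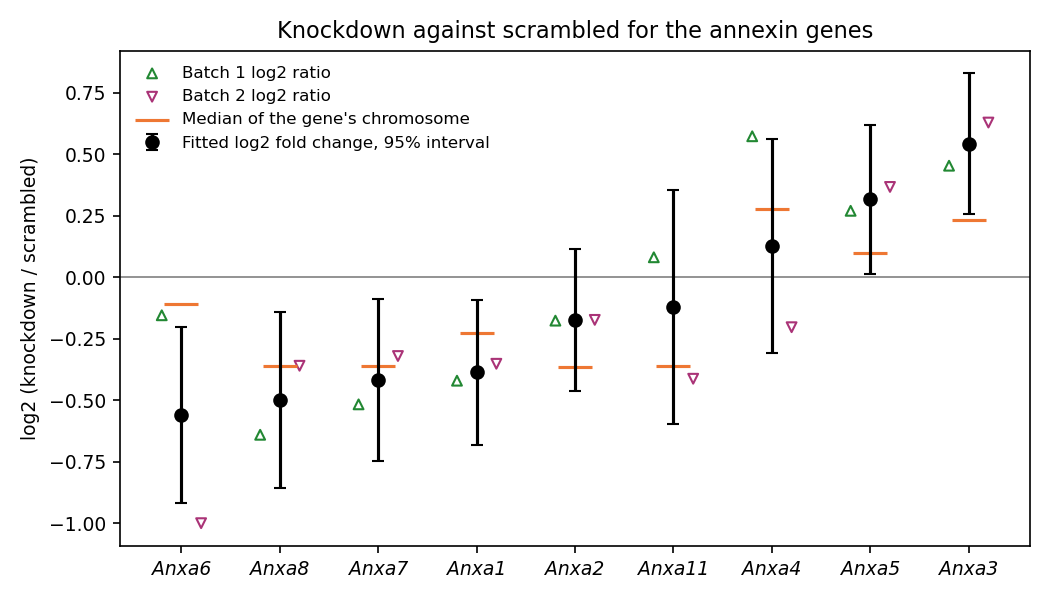
Log2 fold change of knockdown against scrambled with its 95% interval from edgeR (black), the log2 ratio of normalized counts within each batch (triangles) and the median log2 fold change of all tested genes on the gene's chromosome (orange bars). The 9 genes run from -0.56 (*Anxa6*) to 0.54 (*Anxa3*), and the batches differ in sign for *Anxa4* and *Anxa11*.

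The scrambled and knockdown ranges were apart in normalized counts for 2 members with knockdown above and 5 with knockdown below. Over all genes tested the shares were 26.4% and 26.0%. The sign of the log2 fold change was that of the chromosome's median for 9 of the 9 members, and for 69.1% of 8662 genes tested. The part of the chromosome in the annexin values was not tested.

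The share of each gene in the annexin reads is given per library, with no test across libraries. *Anxa1* made up 50.6% (95% Wilson interval 49.6 to 51.5) and 48.1% (47.2 to 48.9) of annexin reads in scrambled, and 43.7% (42.7 to 44.7) and 42.7% (41.7 to 43.8) in knockdown. For each *Anxa1* read there were 0.120 and 0.131 *Anxa3* reads in scrambled and 0.220 and 0.257 in knockdown. For each *Anxa5* read there were 0.886 and 1.10 *Anxa3* reads in scrambled against 1.01 and 1.32 in knockdown, and here the groups overlapped. *Anxa5* made up 6.86% and 5.68% of annexin reads in scrambled and 9.56% and 8.31% in knockdown, while *Anxa2* stayed between 28.7% and 30.9% and its groups overlapped. These intervals cover counting error only, and each share also moves with the other members.

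**Figure D3:**
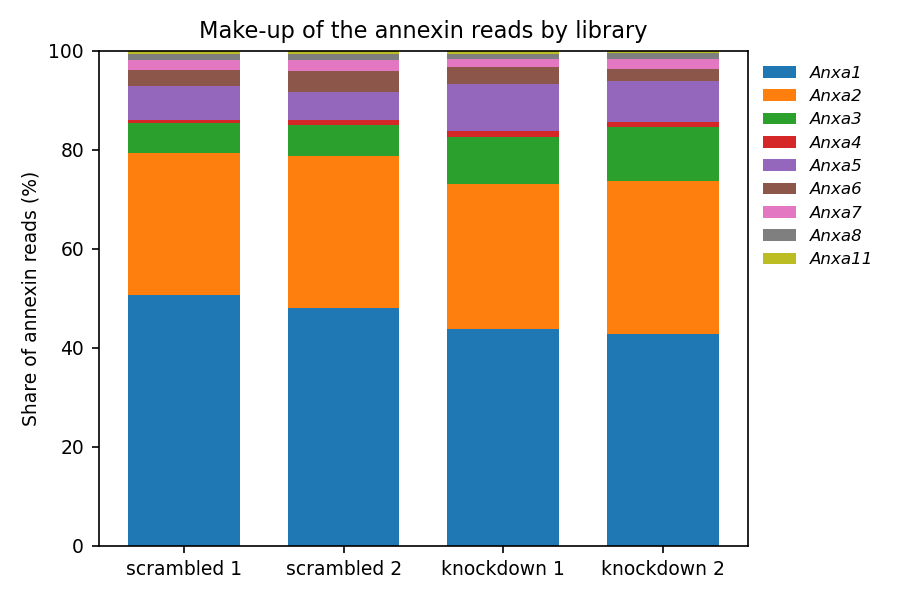
Share of annexin reads (%) held by each of the 9 genes in each library. The *Anxa1* segment is 48.1% to 50.6% in scrambled and 42.7% to 43.7% in knockdown, and the *Anxa3* segment is wider in both knockdown libraries.

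*Met*, the hepatocyte growth factor receptor, and *Golt1b* were among the genes whose profile was most like that of *Anxa3*, out of 2574 genes with a mean normalized count over 100. Their root mean square differences from it in centred log2 CPM over the 4 libraries were 0.0231 and 0.0239. Their log2 fold changes of 0.53 and 0.54 follow from that choice, since the likeness was measured in the same libraries.

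The remaining mouse annexins were at or near 0. *Anxa9* had 1 and 3 reads in scrambled and 7 and 2 in knockdown, *Anxa13* had 3 and 1 in scrambled and 0 in knockdown, and *Anxa10* had 0 in the 4 libraries. None of these passed the filter on low counts.

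Proteins that bind annexins, and receptors of the annexin A1 peptide, made a list of 13 genes, of which 10 were tested. An adjusted p under 0.05 was reached by 2 that rose and by none that fell, where all genes gave 2.51% and 3.44%. The median log2 fold change of the 10 genes was 0.25. *S100a11*, the partner of annexin A1, rose from 763 ± 92.9 to 1192 ± 111 normalized counts (SD, n = 2), or 0.64 ± 0.14 on the log2 scale (SE), with an edgeR adjusted p of 0.0102. *S100a6*, a partner of annexin A11, rose from 10113 ± 678 to 15996 ± 1486 (SD, n = 2), or 0.66 ± 0.15 on the log2 scale (SE), with an edgeR adjusted p of 0.0144. The listed S100 genes that were tested all lie on chromosome 3, whose median log2 fold change was 0.10. With chromosome medians removed *S100a11* was at 0.54 and *S100a6* at 0.56 (adjusted p of 0.0378 and 0.0485 from edgeR). Without scrambled 1 the adjusted p of *S100a11* was 0.126 in edgeR, while *S100a1*, another S100 gene, was at 0.0443. Without scrambled 2 that of *S100a6* was 0.119. In the fit of all 4 libraries *S100a1* missed the threshold, at 0.54 with an edgeR adjusted p of 0.0542. *S100a10*, the partner of annexin A2, had 4272 ± 712 and 4185 ± 208 normalized counts (SD, n = 2), and a log2 fold change of -0.03 with a 95% interval of -0.34 to 0.29. *Sri*, the gene of sorcin, a calcium-binding partner of annexin A7, had a log2 fold change of 0.24 (adjusted p = 0.373 from edgeR). *Fpr1* and *Fpr2*, the receptors, had 0 reads in the 4 libraries.

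Genes of plasma membrane repair made a list of 22, of which 21 were found in the files and 15 were tested (*Vamp7* was not matched). In edgeR none of the 15 had an adjusted p under 0.05, where all genes gave 5.95%, and 1 had an unadjusted p under 0.05. DESeq2 with the Wald test and local fit also gave 0. The median log2 fold change was -0.10, with 4 genes above 0 and 11 below. *Dysf*, the gene of dysferlin, had 4 and 5 reads in scrambled and 0 in knockdown, and *Syt7* had 5 and 8 against 0. Both were under the filter on low counts and were not tested. *Trim72*, *Cav3* and *Ano5* had 0 in the 4 libraries.

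The adjusted p of *Anxa1*, *Anxa3* and *Anxa6* moved across 0.05 with the setting while their directions held, and *Anxa1* stayed under the fold threshold in each. *Anxa3* was under 0.05 in 11 of 17 alternatives, *Anxa6* in 4 and *Anxa1* in 3.

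**Figure D4:**
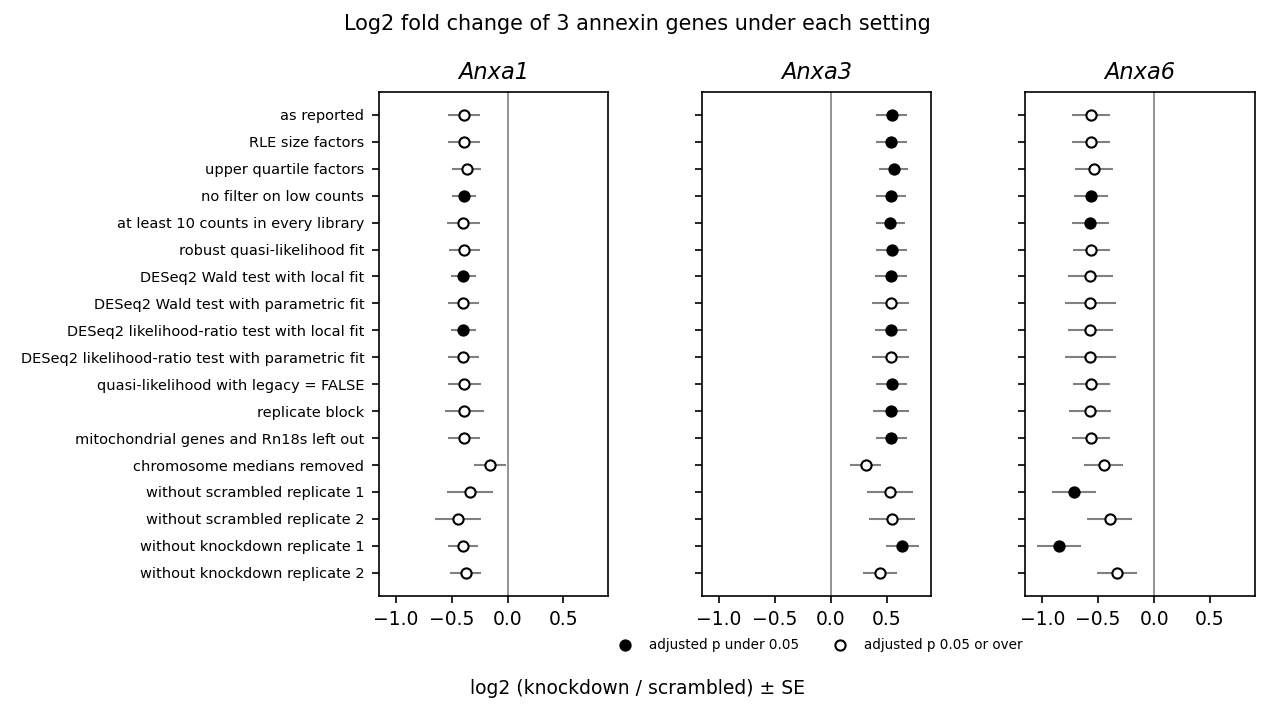
Log2 fold change ± standard error of *Anxa1*, *Anxa3* and *Anxa6* as reported and under 17 alternatives; filled points have an adjusted p under 0.05. *Anxa1* lies between -0.44 and -0.16, *Anxa3* between 0.31 and 0.64 and *Anxa6* between -0.85 and -0.33.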

How the data were processed

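Direct RNA was sequenced from 2 scrambled and 2 *Hnrnpl* knockdown C2C12 libraries. The authors basecalled with guppy, mapped to GRCm39 with minimap2 2.17, counted reads per gene with HTSeq 0.9.1 and deposited whole counts without normalization (versions from the submitters' processing notes). The annotation release and strand setting are not given in the sources used here. Rows of reads not assigned to a gene (42.2% to 43.5% of a library) stayed out of library sizes. Of 56748 gene IDs, 56017 were found in GENCODE vM39, which gave symbols, positions and transcripts. The members and gene lists were chosen with earlier results of these data known.

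Counts were fitted with edgeR 4.0.16 (R 4.3.3) by TMM, filterByExpr and the quasi-likelihood test, without a block, on all 4 libraries, and p-values were adjusted over 8670 genes. The test was checked on simulated data. The study's own 4 DESeq2 configurations (DESeq2 1.42.0), other scalings, filters and fits, a replicate block, removal of chromosome medians and each library left out were alternatives. CPM were computed from all counted reads. Transcripts were mapped with minimap2 2.31-r1302. Named genes were the members, *Anxa9*, *Anxa10*, *Anxa13*, the partner and repair genes under an adjusted p of 0.05, *S100a10*, *S100a11*, *S100a6*, *Sri*, *Hnrnpl* and the 3 profiles most like a called member, of which 1 is not reported here; other names were chosen after their values were seen. Replicate numbers pair the libraries by the batch in the labels; the deviations of the libraries numbered 1 correlated at 0.00104 between groups over 6166 genes. Transcript-level and qPCR data were not used here.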

Additional observations from a re-analysis of the deposited data

How the results depend on the processing

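With 2 libraries per group and 40 to 128 reads per library on *Anxa4* and *Anxa11*, small changes of these genes could not be resolved. Over all genes, 481 were called. DESeq2 called 228 (Wald, local fit), 115 (Wald, parametric), 222 (likelihood ratio, local) and 112 (likelihood ratio, parametric), chromosome medians removed gave 285, an adjusted p under 0.1 gave 772, and single libraries left out gave 194 to 433, the lowest without knockdown 1. Of the annexin genes 1 was called as reported and 0 with either parametric DESeq2 fit (adjusted p of *Anxa3* 0.0799 and 0.0921) or with chromosome medians removed. It was 2, *Anxa6* being added, with no filter, with at least 10 counts in every library or at an adjusted p under 0.1, and 0 to 2 with single libraries left out. Without scrambled 1 the 1 gene called was *Anxa6*. The partner genes numbered 2 as reported, 3 under either other filter, the robust fit, legacy = FALSE or upper quartile scaling, and 1 to 2 with single libraries left out, 1 (*S100a11*) without scrambled 2, and the repair genes 1 with no filter. With chromosome medians removed, the log2 fold change turned to 0.19 for *Anxa2*, -0.15 for *Anxa4* and 0.24 for *Anxa11*. With single libraries left out it ran from -0.16 (without scrambled 1) to 0.52 (without scrambled 2) for *Anxa4*, and from -0.45 (without knockdown 1) to 0.12 (without knockdown 2) for *Anxa11*. The replicate block (484 genes, 1 annexin gene, adjusted p of *Anxa3* 0.0483 from edgeR) changed no annexin call. The cause of these changes was not tested.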
